A study of Sus scrofa with 13 samples.

Results

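The 6 CC chemokine genes CCL2, CCL3L1, CCL4, CCL5, CCL8 and CCL26 were followed through 13 pig liver libraries. They were taken by symbol from a count table of 35670 genes, in which each symbol named 1 row, and all 6 were among the 16481 genes that passed the filter on low counts. The genes had been chosen with values of these same libraries known, CCL3L1 and CCL26 for their difference between controls and infused livers, so the group differences of all 6 are given as a description without p-values. Female Yorkshire pigs had 45 min of warm ischemia of the whole liver by complete hepatic vascular exclusion, and liver was biopsied after 6 h of reperfusion. The ischemic controls (n = 3) received no cells, and the arterial (n = 4) and portal (n = 4) groups received human bone marrow-derived mesenchymal stromal cells (BM-MSCs) shortly after reperfusion, 3 M (mega) cells per kg body weight, by way of the hepatic artery or of the portal vein. Arterial and portal livers together are called infused livers (n = 8), and baseline is liver without ischemia (n = 2, replicates 1a and 2). By the study's methods, baseline biopsies were taken from the experimental pigs before the vessels were clamped. The recipients were pigs and the infused cells human, and which later libraries, if any, came from the same pigs as the 2 baseline libraries is not stated.

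Chemokines are small secreted proteins that attract leukocytes through receptors on the cell surface, and CC chemokines carry a pair of adjacent cysteines near the start of the mature protein. CCL3L1, CCL4 and CCL5 draw in monocytes, T cells and NK cells, and CCR1 is a receptor of CCL3-type ligands and of CCL5. CCL2 and CCL8 attract monocytes through CCR2, and CCL26 (eotaxin-3) is a ligand of CCR3 and of CX3CR1. In liver, resident macrophages, endothelium, stromal cells, hepatocytes and lymphocytes can all transcribe CC chemokines, with NF-kB a common inducer.

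In the RefSeq annotation of Sscrofa11.1, 5 of the 6 genes lie in the CC chemokine cluster on chromosome 12. CCL4 (ENSSSCG00000032343) is at chr12:39479190-39480511 and CCL3L1 (ENSSSCG00000017700) at chr12:39491999-39493345, 11487 bases further. CCL5 (ENSSSCG00000017705) is at chr12:39652731-39659121. CCL8 (ENSSSCG00000040648) at chr12:40740468-40741970 and CCL2 (ENSSSCG00000017723) at chr12:40798109-40800013 are 56138 bases apart, with CCL11 between them. CCL26 (ENSSSCG00000039874) lies elsewhere, at chr3:10381306-10385677.

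Total counts on genes were between 18975413 and 35949178 per library, the lowest in control 2. The libraries differed in how many genes they detected. Of the 16481 genes tested, 20.8% had no read in portal 1, 16.2% in portal 4, 11.7% in arterial 1, 9.19% in arterial 2 and 7.40% in control 2, against 1.78% to 3.99% in the other 8 libraries. Hepatocyte transcripts were abundant in every library, the summed level of 9 markers being between 1051910 and 3938160 normalized counts (counts divided by DESeq2 size factors). Control 2 stood apart in the chemokines themselves. The 6 genes together stood at 540.8 CPM (counts scaled to a fixed library total) there, against 25.5 to 126 in the other 12 libraries. Values are therefore given with and without control 2, and also without control 2, arterial 1, portal 1 and portal 4, a setting chosen after the data were seen.

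Across all genes, edgeR's quasi-likelihood test called 0 genes (0%) at a Benjamini-Hochberg adjusted p under 0.05 in each of 6 comparisons, and so 0 of the 6 chemokines. The genes at an unadjusted p under 0.05 numbered 720 for controls against baseline, 353 for infused livers against controls, 258 for arterial infusion against controls, 460 for portal infusion against controls, 396 for arterial against portal infusion and 683 for infused livers against baseline. DESeq2 over the same 13 libraries called 7 genes (0.043%), 2 (0.0123%), 1 (0.00615%), 3 (0.0184%), 1 (0.00615%) and 14 (0.086%) of 16270 in the same order. CCL3L1 was 1 of the 2 in infused livers against controls, a difference by which it was chosen, so the call is no independent support. With control 2 left out its DESeq2 log2 fold change in that comparison was -0.33 (SE 0.77) in place of -4.55 (SE 0.91). No other chemokine of the 6 was called by DESeq2 over all libraries.

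**Figure D1:**
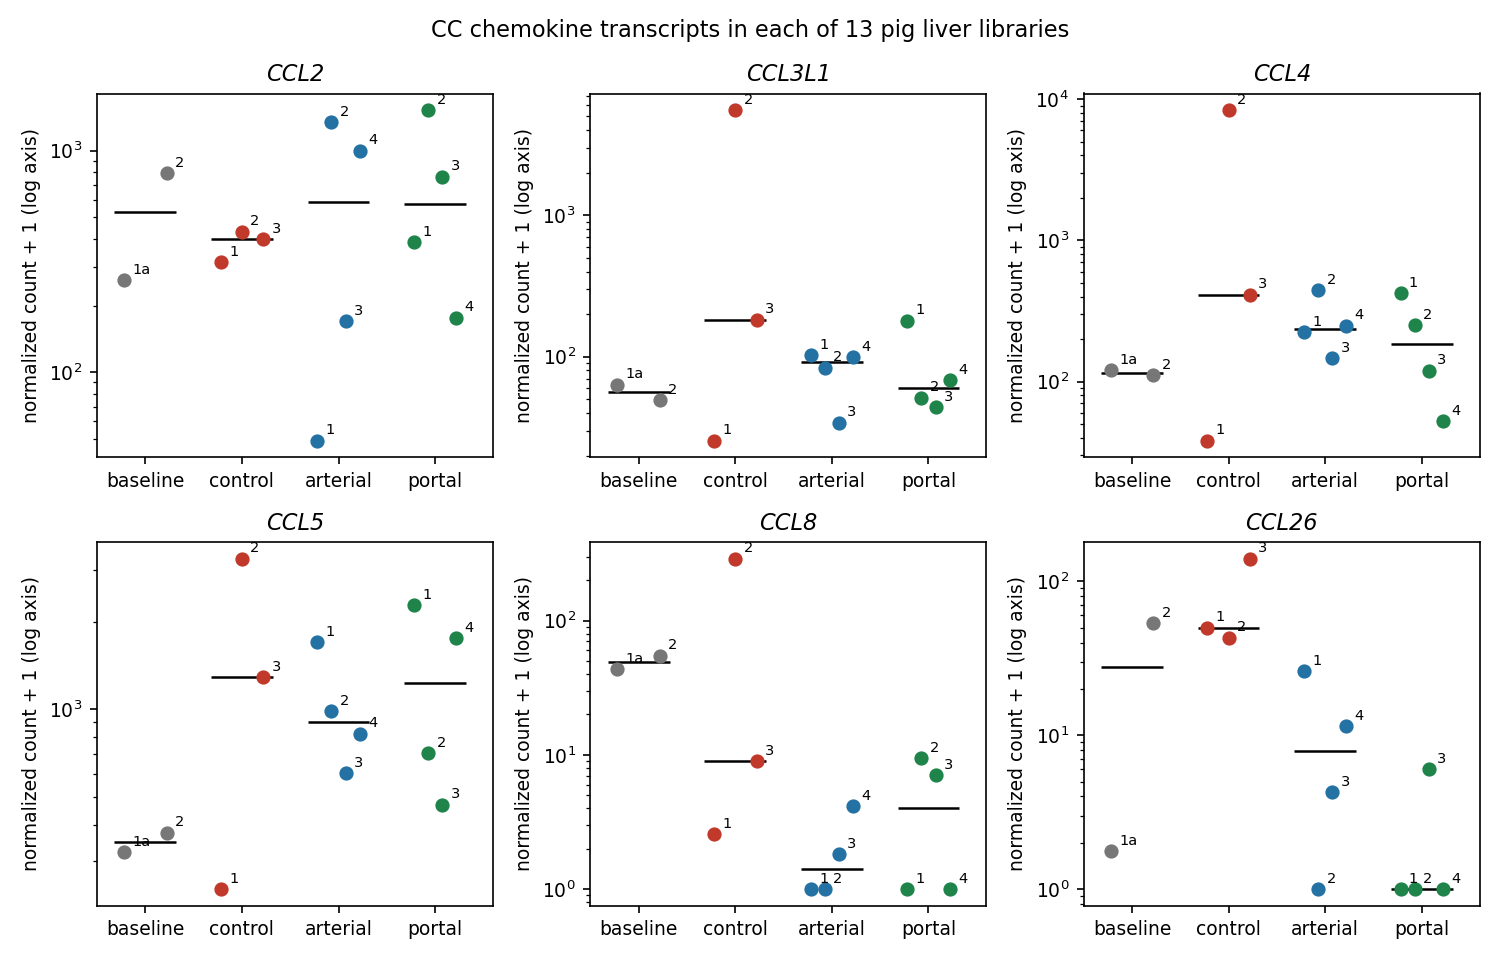
Normalized count plus 1 (log axis) of the 6 chemokines by group, 1 point per library labelled with its replicate number, with a horizontal line at the group median. Control 2 is the highest library for CCL3L1, CCL4, CCL5 and CCL8 but not for CCL2 or CCL26, and the 3 controls lie above all 8 infused livers only for CCL26.

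CCL3L1, a CCL3-type ligand of CCR1, was high in 1 liver. Its normalized count was 62.5 and 48.5 in the baseline libraries 1a and 2, and 24.5, 5541 and 182 in controls 1, 2 and 3. It was 102, 82.6, 33.3 and 98.5 in arterial livers 1 to 4, and 179, 50.4, 43.1 and 67.5 in portal livers 1 to 4. The highest control was 226-fold above the lowest, and control 1 was below all 12 other libraries. The control mean of 1916 ± 3140 (SD, n = 3) therefore had an SD above itself, while the arterial mean was 79.0 ± 31.6 (n = 4) and the portal mean 84.9 ± 63.3 (n = 4). By group mean the order was controls, portal, arterial, baseline, and the control range overlapped all 3 others. The fitted log2 fold change of infused livers against controls was -4.53 (SE 0.89), and -0.41 (SE 0.75) without control 2. For controls against baseline it was 5.03 (SE 1.62), and 0.92 (SE 0.99) without control 2. Between the routes the arterial to portal log2 fold change was -0.05 (SE 1.00).

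CCL4 (MIP-1 beta), an attractant of T cells and monocytes, had the same outlying liver. Its normalized count was 120 and 110 at baseline, 37.2, 8370 and 412 in controls 1 to 3, 223, 441, 146 and 248 in arterial livers 1 to 4, and 424, 250, 118 and 51.5 in portal livers 1 to 4. Control 1 was again the lowest of the 13 libraries and control 2 the highest, and control 3 lay within the range of the infused livers. The group means were 2940 ± 4706 (SD, n = 3) in controls, 265 ± 125 (n = 4) in arterial livers, 211 ± 164 (n = 4) in portal livers and 115 ± 6.96 (n = 2) at baseline. The ranges of controls, arterial and portal livers overlapped, and portal livers spanned the baseline libraries. The log2 fold change of infused livers against controls was -3.61 (SE 0.88), and without control 2 it was 0.0066 (SE 0.78). That of controls against baseline was 4.60 (SE 1.59), and 1.00 (SE 1.00) without control 2. CCL4 and CCL3L1 are close relatives, and how reads that fit several copies were counted is not stated, so the split of reads between them is uncertain. The ratio of CCL4 to CCL3L1 reads was 1.51 in control 2 and between 0.764 in portal 4 and 5.34 in arterial 2 elsewhere.

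CCL5 (RANTES), made by T and NK cells among others, was the member that separated infused livers from baseline in the upward direction. Its normalized count was 322 and 376 at baseline. It was 240, 3291 and 1287 in controls 1 to 3, 1694, 981, 602 and 824 in arterial livers 1 to 4, and 2270, 704, 469 and 1749 in portal livers 1 to 4. All 8 infused livers lay above both baseline libraries, as 4.29% of the genes tested did, and the gap between the lowest infused liver, portal 3, and the higher baseline library was small beside the spread. The controls fell on both sides of baseline, with control 1 the lowest of the 13. By group mean the order was controls at 1606 ± 1551 (SD, n = 3), portal at 1298 ± 854 (n = 4), arterial at 1025 ± 472 (n = 4) and baseline at 349 ± 37.6 (n = 2), and the ranges of controls, portal and arterial livers overlapped one another. The log2 fold change of infused livers against baseline was 1.67 (SE 0.78), and it stayed between 0.99 and 1.85 over the alternatives, the lowest being without control 2, arterial 1, portal 1 and portal 4. In that setting the 5 remaining infused livers had 716 ± 198 (SD), and 7.65% of genes lay above baseline in all of them. Against controls the log2 fold change was -0.48 (SE 0.58), and it turned to 0.53 (SE 0.64) without control 2. The 3 infused livers with the most CCL5 were portal 1, portal 4 and arterial 1, the 3 infused libraries in which the fewest genes had a read, and the part of that in their CCL5 level was not tested.

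**Figure D2:**
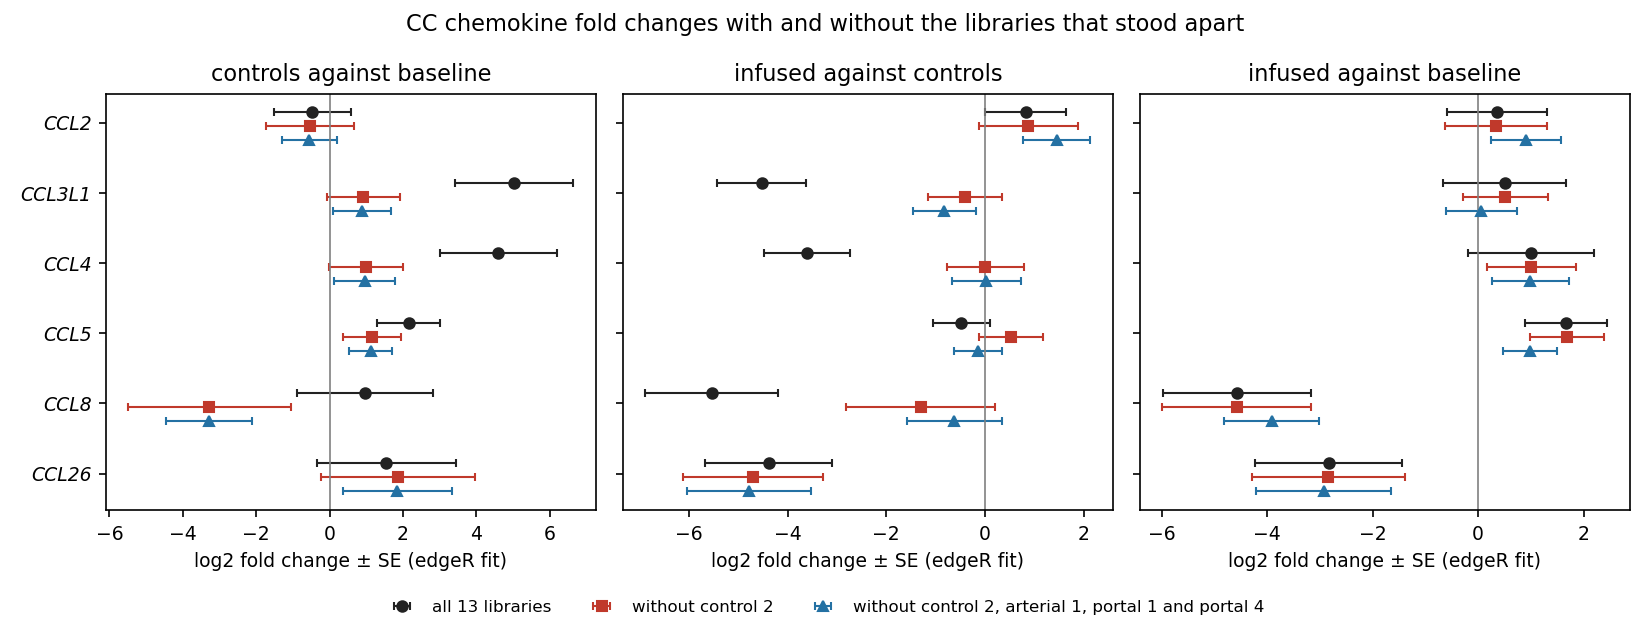
Fitted log2 fold change with its standard error (edgeR) of each chemokine in 3 comparisons, over all 13 libraries (circles), without control 2 (squares) and without control 2, arterial 1, portal 1 and portal 4 (triangles). For infused livers against controls, CCL3L1 moves from -4.53 to -0.41 and CCL4 from -3.61 to 0.0066 without control 2, while CCL26 stays at -4.38 and -4.70.

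CCL2 (MCP-1), the main monocyte attractant of CCR2, was the member whose controls lay closest together. Its normalized count was 260 and 793 at baseline, and 313, 431 and 398 in controls 1 to 3. In arterial livers 1 to 4 it was 48.2, 1342, 169 and 1000, and in portal livers 1 to 4 it was 385, 1523, 761 and 175. The controls differed by 1.37-fold from lowest to highest, the arterial livers by 27.8-fold and the portal livers by 8.68-fold. Infused livers lay on both sides of the controls. Arterial 2, arterial 4, portal 2 and portal 3 were above all 3 controls, arterial 1, arterial 3 and portal 4 were below them, and portal 1 was among them. The means were 711 ± 593 (SD, n = 4) in portal livers, 640 ± 631 (n = 4) in arterial livers, 527 ± 377 (n = 2) at baseline and 381 ± 60.6 (n = 3) in controls, and no neighbours in this order differed beyond their spread. The log2 fold change of infused livers against controls was 0.82 (SE 0.82), and it was between 0.46 and 1.00 when any 1 library was left out. Control 2, the highest liver for 4 of the other chemokines, was in the middle for CCL2.

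CCL8 (MCP-2), another ligand of CCR2, was present at baseline and near 0 in most livers at 6 h. The raw reads were 55 and 51 at baseline, 2, 165 and 11 in controls 1 to 3, 0, 0, 1 and 3 in arterial livers 1 to 4, and 0, 9, 6 and 0 in portal livers 1 to 4. As normalized counts the baseline libraries were at 42.4 and 53.8, the controls at 1.58, 289 and 7.95, and the highest infused liver, portal 2, at 8.41. All 8 infused livers lay below both baseline libraries, as 5.77% of the genes tested did, and controls 1 and 3 lay below baseline with them. The baseline mean was 48.1 ± 8.05 (SD, n = 2), the control mean 99.5 ± 164 (n = 3), the portal mean 3.61 ± 4.28 (n = 4) and the arterial mean 0.989 ± 1.49 (n = 4), and arterial and portal livers overlapped. The log2 fold change of infused livers against baseline was -4.57 (SE 1.40) and lay between -6.55 and -3.91 over the alternatives. That of controls against baseline was 0.97 (SE 1.86) with control 2 and -3.27 (SE 2.21) without it, where the remaining controls lay below baseline as 22.2% of genes did. Against controls, infused livers were at -5.54 (SE 1.34), and at -1.31 (SE 1.51) without control 2.

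The zeros of CCL8 were set beside those of genes at a like level in the same libraries. Of 1492 genes whose mean at baseline was within 1.5-fold of that of CCL8, 34.9% had no read in portal 1, 22.3% in portal 4, 16.1% in arterial 1 and 2.55% in arterial 2, the 4 libraries in which CCL8 was at 0. In arterial 3, arterial 4, portal 2 and portal 3, where at most 0.536% of such genes had no read, CCL8 had 1, 3, 9 and 6 reads. Without arterial 1, portal 1, portal 4 and control 2, all 5 remaining infused livers were still below baseline, as 8.89% of genes were, at 3.68 ± 3.53 (SD) normalized counts.

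CCL26 (eotaxin-3), an attractant of eosinophils induced by IL-4 and IL-13, was the only member of the 6 whose 3 controls lay above all 8 infused livers. The raw reads were 1 and 50 at baseline, 62, 24 and 193 in controls 1 to 3, 28, 0, 4 and 10 in arterial livers 1 to 4, and 0, 0, 5 and 0 in portal livers 1 to 4. As normalized counts, the controls were at 49.0, 42.0 and 139, the arterial livers at 24.98, 0, 3.24 and 10.5, and the portal livers at 0, 0, 5.02 and 0. CCL26 was in part chosen by this difference, and 0.34% of the genes tested had all infused livers below all controls. Baseline held both ends, with 0.771 in library 1a and 52.7 in library 2, so that baseline 2 lay within the control range. The control mean was 76.8 ± 54.4 (SD, n = 3), the baseline mean 26.8 ± 36.8 (n = 2), the arterial mean 9.677 ± 11.105 (n = 4) and the portal mean 1.25 ± 2.51 (n = 4). Arterial livers were below all controls, as 1.57% of genes were, and so were portal livers, as 2.33% of genes were. Arterial and portal livers overlapped, and their log2 fold change was 2.75 (SE 1.59).

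The log2 fold change of CCL26 in infused livers against controls was -4.38 (SE 1.28). Leaving out any 1 library gave between -6.18 and -3.65, the first without portal 3, where the portal group had no read left and the fitted value depended on the prior count. Without control 2 it was -4.70 (SE 1.42), and 1.98% of genes then lay below the remaining controls in all infused livers. Without arterial 1, portal 1 and portal 4 as well, the 5 remaining infused livers had 3.75 ± 4.34 (SD) normalized counts and lay below controls 1 and 3, as 6.32% of genes did. The comparisons with baseline rested on single libraries. Controls were above baseline by 1.55 (SE 1.89) on the log2 scale and by 6.42 without baseline 2, and infused livers went from -2.83 (SE 1.40) below baseline to 2.03 above it without baseline 2. Of 1531 genes whose control mean was within 1.5-fold of that of CCL26, 23.7% had no read in portal 1, 11% in portal 4, 6.07% in arterial 1, 1.24% in arterial 2 and 0.392% in portal 2. CCL26 was at 0 in 4 of these 5 libraries and had 28 reads in arterial 1.

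For controls against baseline, 0 of the 6 chemokines had all controls above both baseline libraries and 0 had all controls below them, while 14.8% and 16.3% of the genes tested did. The median log2 fold change of the 6 was 1.85 in that comparison, beside 0.0048 over all genes tested, and 0.96 without control 2. In infused livers against controls the median of the 6 was -4.00, beside -0.02 over all genes. CCL3L1 and CCL26 were chosen by this difference, so that median is no independent support for it. Without control 2 the median was -0.20, when 3 of the 6 were positive and 3 negative. In infused livers against baseline the median of the 6 was 0.43 beside -0.01. That comparison leaves out the controls but still uses the infused livers that entered the choice.

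Within the 11 livers at 6 h, the orders of level were compared between the chemokines. Spearman's rho was 0.85 between CCL3L1 and CCL5, 0.76 between CCL3L1 and CCL4 and 0.60 between CCL4 and CCL5, and without control 2 it was 0.81, 0.68 and 0.47. In the 7 livers left without control 2, arterial 1, portal 1 and portal 4 these were 0.93, 0.79 and 0.93. CCL2 had a rho of 0.47 with CCL4 and 0.50 with CCL8 (0.52 and 0.53 without control 2), 0.07 with CCL3L1, -0.15 with CCL5 and -0.24 with CCL26. The Pearson correlation of CCL3L1 with CCL8 was 0.74 over the 11 livers and -0.11 without control 2. These are descriptions over libraries that share their groups, depth and tissue makeup.

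**Figure D3:**
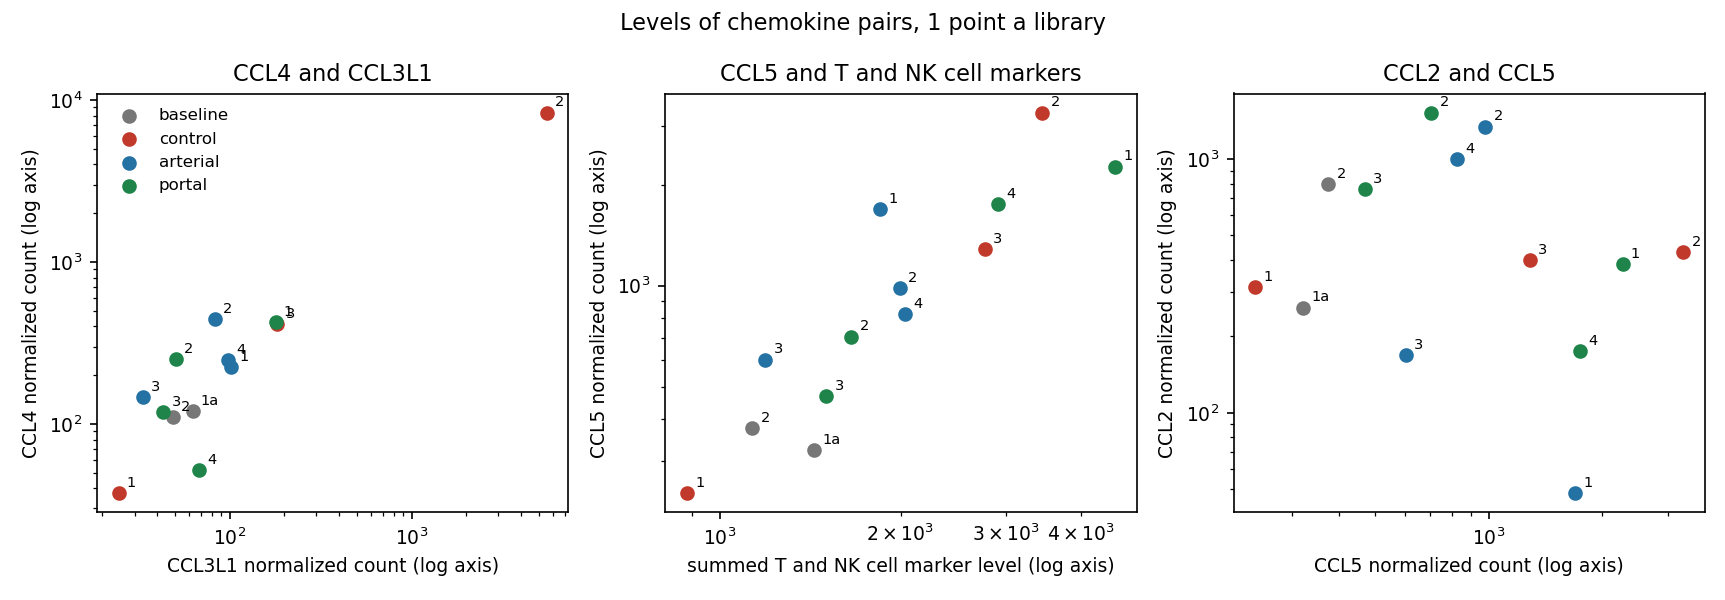
Normalized counts on log axes, 1 point per library labelled with its replicate number and coloured by group, for CCL4 against CCL3L1, for CCL5 against the summed level of T and NK cell markers, and for CCL2 against CCL5. Control 2 lies far from the rest in the first panel at 5541 and 8370, the second shows a rho of 0.92 over the 11 livers at 6 h, and the third a rho of -0.15.

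The genes most like each chemokine were taken as the 5 with the highest rho over the 11 livers. For CCL2 these were GPR4 (rho 0.89), MYLIP, NUSAP1, MTBP and HRG. For CCL3L1 they were PKLR (0.95), AFAP1L1, CD5, DERL3 and RHBDD3, among which CD5 is a T cell surface protein, and for CCL4 they were PHACTR1 (0.94), JDP2, CDH24, GFI1 and ZNF621. For CCL5 they were CDK2AP2 (0.99), TXN2, CCDC61, GCGR and SH3GLB2. For CCL8 they were NPAS1 (0.94), TSKS, GPR31, CHAD and HAS1, and for CCL26 CLCA2 (0.96), ISM1, VGF, ECI1 and PCSK1N. No gene was shared between these 6 lists. They were picked as the highest of all genes tested that carry a symbol, and they share depth and tissue makeup with the chemokines.

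Markers of leukocytes moved with several of the chemokines. In bulk tissue, fewer cells of a type and less RNA per cell cannot be told apart. The summed level of the T and NK cell markers (12 genes of 13 in the table, on 13 rows since GZMA has more than 1) was 882 in control 1, 3445 in control 2 and 2761 in control 3, between 1192 and 2033 in arterial livers, between 1506 and 4551 in portal livers, and 1133 and 1435 at baseline. CCL5 followed it with a rho of 0.92 over the 11 livers, 0.90 without control 2 and 0.93 in the 7 livers, and CCL3L1 with 0.85, 0.82 and 1.0. The most abundant genes of the list were CD4, NKG7, CD3E and CD2. High values were not confined to this list. Over the 11 livers CCL5 had a rho of 0.91 with the summed other CC ligands, 0.68 with erythroid and -0.71 with hepatocyte markers. CCL3L1 had 0.87 with the other CC ligands and 0.82 with neutrophil markers. The sum of the other CC ligands was mostly CCL16, at 49151 of 53448 in control 2 and 18061 of 18662 in portal 3. The rho values with that sum thus mainly follow 1 gene. The T and NK cell sum was highest in portal 1, followed by control 2 and portal 4, which were also the 3 libraries with the most CCL5. Its part in the level of CCL5 was not tested.

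The summed level of the monocyte and macrophage markers (12 of 14 genes with a row) was 54536 in control 1, 125842 in control 2 and 59757 in control 3, and between 39763 and 47322 in the 8 infused livers. All 3 controls were thus above all infused livers. Among single genes tested 0.34% had this order, and no such share was worked out for sums over lists. CCL26 had this order too, and its rho with the sum was 0.74 over the 11 livers and 0.69 without control 2. CCL26 was in part chosen by its difference between controls and infused livers, so this rho is no independent support for a link. The genes with the most counts were CD14, C1QA, C1QB and CD163. Of these only C1QA had all controls above all infused livers, and the ranges of CD14, C1QB and CD163 overlapped. In 10 of the 12 genes the infused livers had a negative log2 fold change against controls, with 0 of 12 called. The median over the list was -0.69 beside -0.02 over all genes. CCL2, whose product attracts monocytes, had a rho of -0.60 with the same sum. The part of these markers in the levels of CCL26 and of CCL3L1, CCL4 and CCL8 in control 2 was not tested.

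Neutrophil markers, with 7 of 10 genes in the table, summed to 11990 in control 2, 8850 in arterial 1, 6286 in arterial 4 and 4298 in control 3, and to 3395 or less elsewhere. Erythroid markers summed to 29255 in control 2, 18150 in portal 1 and 13764 in arterial 4. Control 2 was thus the highest library for monocyte, neutrophil and erythroid markers as well as for 4 of the chemokines, and the part of these in its chemokine levels was not tested. Of the 8 eosinophil, basophil and mast cell markers 4 had a row. The eosinophil genes EPX and IL5RA were at most 7.33 and 3.14 normalized counts, both in arterial livers, and were at 0 in all 4 portal livers. The mast cell and basophil receptor gene MS4A2 was between 54.4 and 172 in all libraries. The controls, in which CCL26 was highest, had a summed level of this list between 59.5 and 149, and the infused livers between 62.6 and 191.

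The receptor genes CCR1 and CCR2 were not high in control 2. Of 15 CC chemokine receptor genes on the list, 14 had a row, and 11 passed the filter, among them CCR1, CCR2, CCR4, CCR7, CCR9, CCRL2, CX3CR1, ACKR1, ACKR2 and ACKR4. CCR3, the main receptor of CCL26, had no row under that symbol, and CCR6, CCR8 and CCR10 did not pass the filter. CCR1 was at 142 normalized counts in control 2, the lowest of the 13 libraries, and reached 1556 in arterial 4. CCR2, the receptor of CCL2 and CCL8, was at 47.3 in control 2 and between 45.3 and 327 elsewhere. CX3CR1 was at 0 in portal 1 and portal 4, at 30.8 and 31.1 in portal 2 and 3, and between 51.1 and 300 in arterial livers. All arterial livers were thus above all portal livers, as 0.91% of the genes tested were, and the zeros were in the libraries where 20.8% and 16.2% of those genes had no read. Its arterial to portal log2 fold change was 3.07 (SE 1.13), with a Benjamini-Hochberg adjusted p of 1.00 by edgeR.

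The atypical receptor ACKR2, which takes up and degrades inflammatory CC chemokines, was lower in all portal livers than in all arterial livers, a pattern it shared with those 0.91% of genes. It was at 220, 157, 292 and 136 in portal livers 1 to 4, and at 530, 778, 438 and 388 in arterial livers 1 to 4. The controls were at 411, 1070 and 283, with control 2 the highest of the 13 libraries and control 3 within the portal range. The portal to control log2 fold change was -1.54 (SE 0.49) with a Benjamini-Hochberg adjusted p of 1 by edgeR. The arterial to portal value was 1.42 (SE 0.46) with an adjusted p of 1.00, so neither passed the test over all genes. Over the receptor list, 0 of 11 genes were called in any of the 6 comparisons by edgeR or by DESeq2 over all libraries, and the median log2 fold change of infused livers against controls was -0.10 beside -0.02 over all genes.

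Of 22 other CC ligands on the list, 11 had a row and 8 passed the filter, CCL11, CCL14, CCL16, CCL19, CCL21, CCL22, CCL25 and CCL28. None of these 8 was called by edgeR or by DESeq2 over all libraries in any comparison. CCL14 and CCL16, which lie between CCL3L1 and CCL5 on the chromosome, were also highest in control 2. CCL14 was at 180 and 159 at baseline, 310, 1857 and 689 in controls 1 to 3, 433, 367, 299 and 238 in arterial livers, and 502, 292, 279 and 1359 in portal livers. All livers at 6 h were above both baseline libraries for CCL14, as 14.8% of genes were in controls and 4.29% in infused livers. Its log2 fold change of controls against baseline was 2.44 (SE 0.78), with a Benjamini-Hochberg adjusted p of 0.978 by edgeR. CCL16, a chemokine that hepatocytes express, was at 49151 in control 2 and between 12035 and 35274 in the other 12 libraries. CCL11, the gene between CCL8 and CCL2, was at 12.3 in control 2, below every other library but portal 1 at 0. High values in control 2 were thus not shared by every gene of the cluster.

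**Figure D4:**
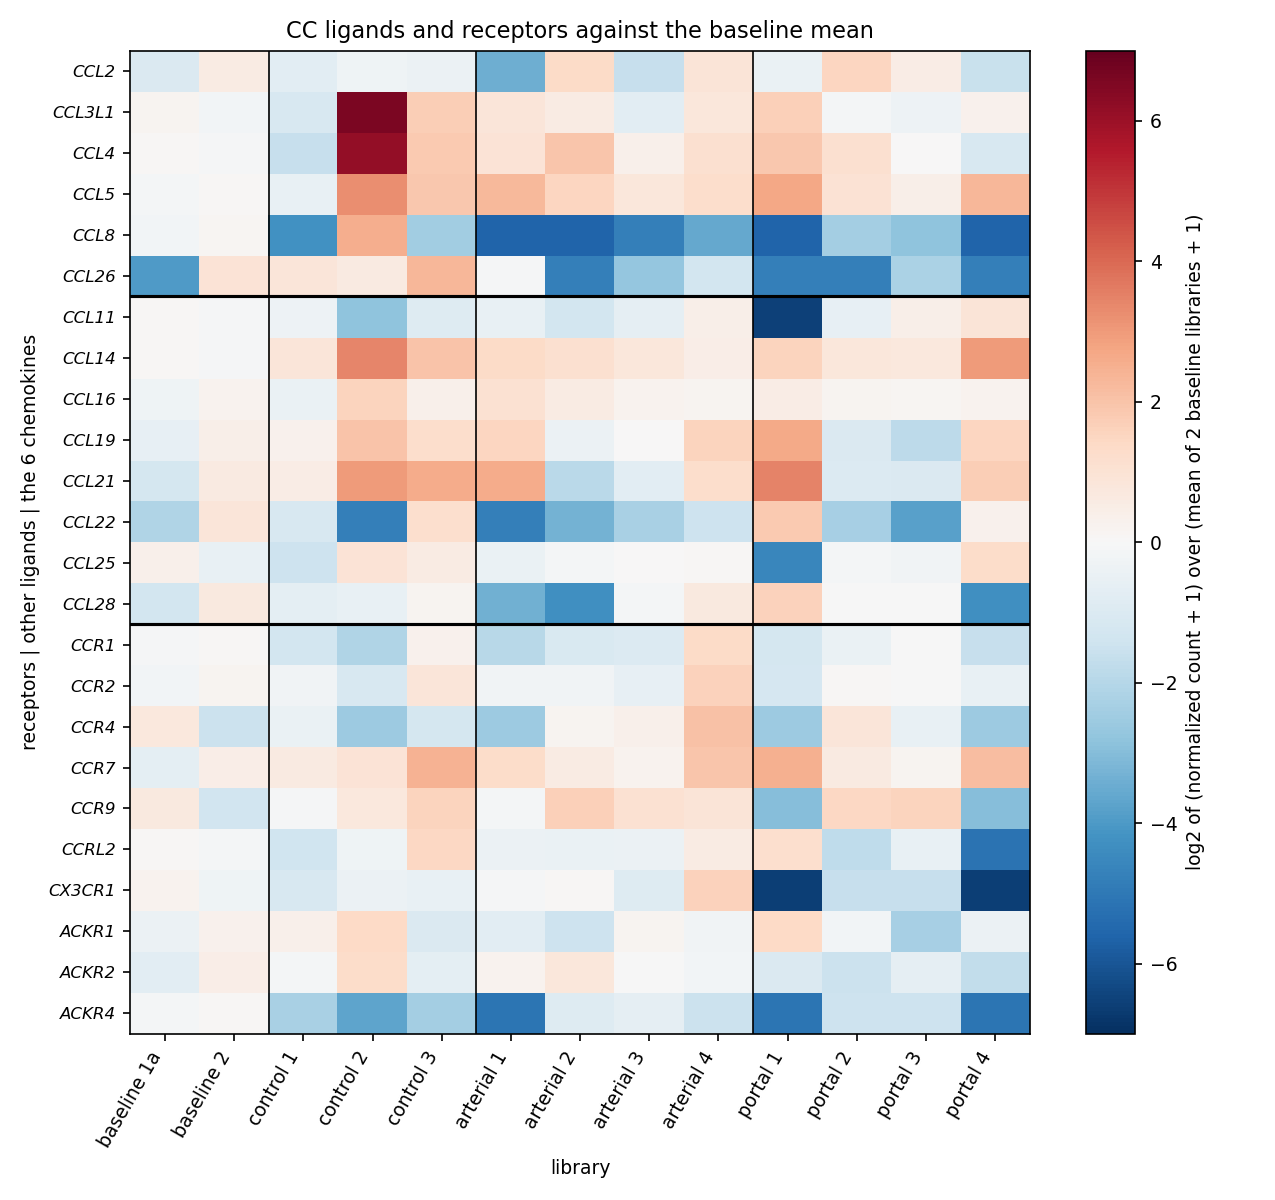
Each cell is the log2 of normalized count plus 1 over the mean of the 2 baseline libraries plus 1, for the 6 chemokines (top), 8 other CC ligands (middle) and 10 receptors (bottom) in 13 libraries (columns), red above and blue below baseline. The darkest red cells are CCL3L1 and CCL4 in control 2 (5541 and 8370 normalized counts), and CCL8 is blue in all infused livers.

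The lists of upstream genes gave no calls. Of the 20 NF-kB and cytokine inducers, 18 had a row and passed the filter, 0 were called in any comparison by edgeR, and their median log2 fold change was 0.54 for controls against baseline and -0.35 for infused livers against controls. Their summed level, led by CEBPB, RELA, ICAM1 and NFKBIA, was 55553 in control 2 and 46264 in portal 1, against 18610 to 32510 in the other 11 libraries. Of the 7 genes of the IL4 and IL13 axis, which induces CCL26, 6 had a row and 5 passed the filter, and IL4 did not pass it. All 5 had a negative log2 fold change for controls against baseline, with a median of -0.78, 0 called, while the median for infused livers against controls was -0.06. Of 10 interferon-related genes, 8 passed the filter. Their summed level was 79124 in portal 3, led by MX1 at 34014, against 5459 to 25794 in the other 12 libraries. CCL5 and CCL8, which interferons can induce, were at 469 and 6.02 in portal 3. Among the infused livers CCL5 was lowest there, while CCL8 was higher only in portal 2, at 8.41. The part of interferon in these levels was not tested. Of 7 genes whose products modify or bind chemokines, such as DPP4, 6 passed the filter and 0 were called. The hepatocyte, endothelial, stellate and stromal, cholangiocyte, and B and plasma cell lists also had 0 genes called in any comparison by edgeR, as did the T and NK cell, neutrophil, eosinophil and erythroid lists. For infused livers against controls the median log2 fold change was 0.16 over the hepatocyte list, -0.34 over the endothelial, -0.64 over the stellate and stromal, -0.49 over the cholangiocyte and 0.42 over the B and plasma cell list.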

How the data were processed

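RNA was measured in bulk, poly-A selected, from 13 pig liver libraries. The authors used HISAT2 to map reads to Sscrofa11.1 and FeatureCounts with Ensembl gene models to count them, and deposited the raw counts without normalization. Tool versions and the handling of reads that fit several places are not given in the sources used here, and no separate mapping of human reads is described. Libraries were non-directional, so antisense reads cannot be told apart. The sample labels name a miRNeasy kit and the paper's sequencing methods a NucleoSpin kit. Groups and replicate numbers came from the labels, and 0 count columns were without a sample. The study describes the control, arterial and portal samples as separate pigs, and does not say so of the 2 baseline libraries.

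Group differences were fitted by edgeR 4.0.16 under R 4.3.3 (TMM after filterByExpr, quasi-likelihood test, Benjamini-Hochberg, threshold 0.05), with 4 groups in 1 fit and the arterial and portal terms averaged for infused livers. The standard error of a log2 fold change was its size over the square root of F. DESeq2 1.42.0 gave size factors and an alternative test. The common biological coefficient of variation was 0.729. A gene without a read may stand for up to 3 reads by counting error alone, and reads are not molecules. Total counts were between 18975413 and 35949178. The smallest chi-square per gene between any pair of libraries was 72.1, so no library was a copy of another. The fits were also run on simulated counts that held no outlying library, and the outcome is not given here. Alternatives were DESeq2, edgeR over the groups compared, RLE and upper quartile normalization, no filter or at least 10 counts in every library, the replicate number as a block and leaving out libraries.

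The 6 chemokines and the 16 gene lists, written from general knowledge, were chosen with earlier results of these data known. Genes named were the 6, the other CC ligands and receptors past the filter or missing from it, the 5 genes with the highest Spearman rho to each chemokine over the 11 livers at 6 h (log2 of normalized count plus 1), and up to 4 most abundant genes of each other list. EPX, IL5RA, IL4 and DPP4 were named for their roles after their values were seen. Gene lengths were not used, so levels are not compared between genes, and no sequences are shown. The values of 1 receptor gene on the list are not reported here.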

Additional observations from a re-analysis of the deposited data

Results flagged for a closer look

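In the 12 groups of 4 livers tested for a sample far from the others (6 chemokines in arterial and in portal livers), 1 was flagged. CCL26 in portal 3 was at 5.02 normalized counts (5 reads), and the other 3 portal livers were at 0. Chance flags about 1 in 20 such groups where values vary continuously. With 3 livers at 0, any read in the remaining liver is flagged, so that rate does not hold for this group. Groups of 3 were not tested in this way, so control 2 is not among them.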

How the results depend on the processing

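The edgeR count of genes called was 0 in all 6 comparisons with RLE or upper quartile normalization, with at least 10 counts in every library, over only the groups compared, without portal 1 and portal 4, and when any 1 library was left out (0 to 0). Other settings gave other counts, in the order controls against baseline, infused against controls, arterial against controls, portal against controls, arterial against portal and infused against baseline. DESeq2 over all libraries called 7, 2, 1, 3, 1 and 14 genes, and DESeq2 over the groups compared 166, 2, 0, 2, 0 and 15. With no filter on low counts edgeR called 30, 19, 11, 14, 5 and 25. Of the settings chosen after the data were seen, edgeR without control 2, arterial 1, portal 1 and portal 4 called 1 gene in infused against controls and 1 in arterial against controls, and DESeq2 without control 2 called 5, 2, 0, 5, 1 and 16. The cause of these differences was not tested.

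The replicate number as a block also gave 0 calls in all 6 comparisons. The correlation of deviations between same-numbered libraries ran from -0.42 for control 1 and portal 1 to 0.43 for arterial 3 and portal 3. Not every library correlated best with its own number, control 1 and portal 2 being at 0.44. Same numbers went with both signs, so these values do not settle whether same-numbered livers share more than a number. Under the block the log2 fold change of CCL4 in infused livers against controls was -2.50, and that of CCL8 in controls against baseline was -1.87.

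Of the other values under the alternatives (the chemokines' fold changes, group means and correlations, and the calls within the gene lists), 1367 moved by less than the spread and 61 by more. For a fold change, that spread was its standard error in the edgeR fit over all libraries. A large shift of a gene with a wide standard error could thus count as less. CCL2 in infused livers against baseline turned to -0.23 without baseline 1a and reached 1.34 without baseline 2. CCL8 in portal livers against controls was -4.60 over all libraries and 0.60 without control 2, arterial 1, portal 1 and portal 4, and CCL5 in arterial against portal livers went from -0.28 to 0.75 without portal 1 and portal 4. CCL8 and CCL26 gave no value with at least 10 counts in every library, since neither passes that filter. With 2 baseline libraries and few reads of CCL8 and CCL26, smaller differences were not detectable in these libraries.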

Other observations

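Some CC ligands outside the 6 differed widely between livers. CCL19 and CCL21, which guide lymphocytes and dendritic cells through CCR7, were highest in portal 1 at 2436 and 1178 normalized counts and lowest among the infused livers in portal 3 at 108 (CCL19) and arterial 2 at 27.9 (CCL21). Their receptor gene CCR7 was at 122 in portal 1, 120 in control 3 and 99.4 in portal 4, and between 13.1 and 85.9 in the other 10 libraries. CCL22 was at 96.9 in portal 1 and 62.9 in control 3, and at 0 in control 2 and arterial 1. CCL27 had 51.6 normalized counts in portal 1 and at most 10.5 elsewhere. The scavenging receptor gene ACKR4 was at 31.6 and 36.9 at baseline and at most 21.9 in the 11 livers at 6 h, and 16.3% of the genes tested had all controls and 5.77% all infused livers below baseline. It was at 0 in arterial 1, portal 1 and portal 4, where 11.7%, 20.8% and 16.2% of those genes had no read, and its log2 fold change of controls against baseline was -2.81. CCL27 did not pass the filter, and none of the others was called by edgeR in any comparison.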
